A study of Mus musculus with 23 samples.

Results

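The diet contrast in the striatum was described on 8 of the 23 arrays of the study, the 4 striatum arrays of mice with free access to a chocolate mixture (CM) and the 4 striatum arrays of mice on standard chow (SC). The arrays were chosen by the region and diet in their labels, and no measured value entered the choice. The mice were C57BL/6 females of 5 weeks at the start, housed singly, with no engineered allele. For 8 weeks the SC mice had chow in both food dispensers, and the CM mice had chow in one dispenser and pellets of Mars, Bounty, Snickers and Milka in the other. Both groups then went through an 11-day test battery, in which the free-choice diet was suspended for 5 days and chocolate was offered for 1 h per day, also to the SC mice, and quinine-adulterated chocolate was offered. The initial diets were back for 6 days before the mice were killed, so that SC mice were not naive to chocolate and the contrast compares long with short exposure. Each array held the Cy3-labelled RNA of 1 mouse, and the arrays are called here by the mouse, L52, L54, L56 and L58 for SC and O52, O54, O56 and O58 for CM.

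The striatum is the input nucleus of the basal ganglia and receives dopamine from the midbrain and glutamate from cortex and thalamus. Most of its cells are GABAergic projection neurons, which express either the D1 dopamine receptor with substance P and dynorphin or the D2 receptor with enkephalin. Dopamine and glutamate act there through cAMP, calcium and a wave of immediate early genes, and the region is studied for its part in the reward value of food and in habits. All values below are normalized log2 intensities, on which 1 unit is a 2-fold difference in brightness, and levels of different genes are not compared with each other because each probe has its own brightness.

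The 8 arrays lay on 3 slides, and this limited every comparison of diets. All 4 CM arrays and the SC array L52 were on slide 1, slide 2 held L54 and L56, and L58 lay on slide 3, so that L52 was the one chow array that shared the slide of the CM arrays and it is shown apart throughout. Between 37244 and 39380 spots per striatum array were well above background and none was saturated. The fit gave the SC arrays weights of 0.275 (L52), 0.522 (L54), 1.06 (L56) and 0.222 (L58) and the CM arrays weights of 0.897 to 1.74. Fitted differences therefore leaned on L56 among the SC arrays and differ from plain differences of means. Nothing states that the mice of a diet came from separate litters or were dissected on separate days, so p-values measure the spread between these arrays.

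Markers of the tissue were checked on the SC arrays. Of 30 markers of striatal projection neurons, 28 were higher in striatum than in frontal cortex and 28 were higher than in hypothalamus (adjusted p under 0.05, limma), 26 of them in both, and none was lower. The sample titles of the latter region end in TH, and the name hypothalamus is the paper's. Markers of neighbouring regions differed between the 8 arrays. L52 had the highest mean level of the 12 hypothalamic markers, 10.72 against 6.998 to 8.81 on the other 7 arrays, and the highest mean of the 9 thalamic markers, 9.82 against 7.68 to 9.37. On L52 Hcrt (hypocretin) was at 15.45, Pmch (melanin-concentrating hormone) at 14.403, Oxt (oxytocin) at 14.32 and Avp (vasopressin) at 12.901. L54 had the lowest mean of the striatal markers, 12.49 against 13.04 to 13.29 elsewhere, and the highest mean of the 14 cortical markers, 10.35, with 9.56 on L58 and 7.49 on O58. O58 had a mean of 11.95 for the 12 choroid plexus markers against 6.49 to 8.03 on the other arrays. The slide-matched chow array was thus also the array with the highest hypothalamic markers, and the part of these markers in the diet differences below was not tested. In bulk tissue, fewer cells of a type and less RNA per cell cannot be told apart.

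**Figure D1:**
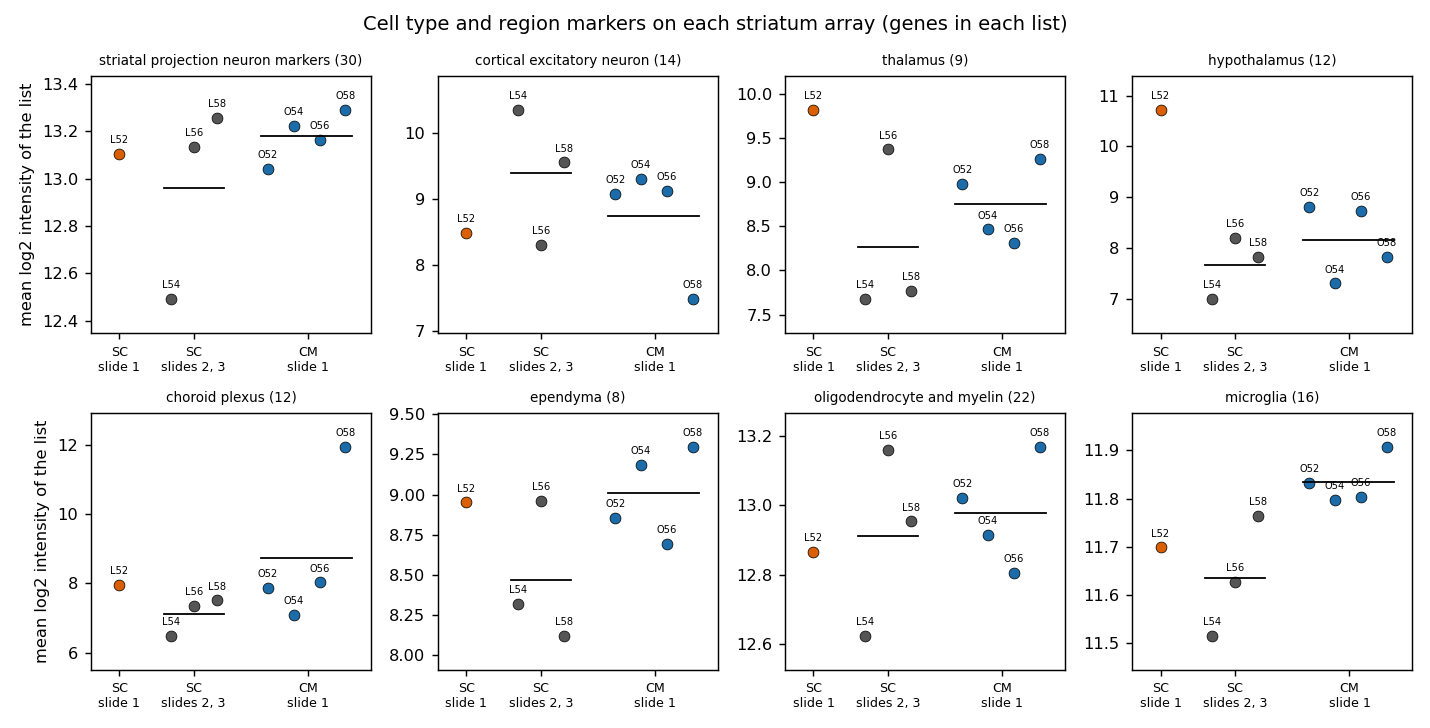
Mean normalized log2 intensity of 8 marker lists on each striatum array, with the number of genes in each list, for SC L52 on slide 1 (orange), the SC arrays of slides 2 and 3 (grey) and the CM arrays of slide 1 (blue). Bars give the mean of the 3 other SC arrays and of the 4 CM arrays, and L52 stands out for hypothalamic markers (10.72), L54 for cortical markers (10.35) and O58 for choroid plexus markers (11.95).

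To see how far diet could be read from known genes with a firm signal, 11049 bright known genes were taken, which had a current gene symbol, were well above background on all 8 arrays and lay at or above the median of all transcripts (7.75). At an adjusted p under 0.05, 497 of them rose in CM and 384 fell. This is 7.97% of the bright known genes (4.5% rises and 3.48% falls), beside 9.82% of all 31395 transcripts tested. With the 8 striatum arrays quantile normalized, filtered and also fitted on their own, the split turned to 90 rises and 128 falls. The parts of normalization, filter and fit in this change were not separated. At 2-fold and an adjusted p under 0.01, no bright known gene rose and 29 fell (0.262%). The median difference over all bright known genes was 0.07, so small rises are read against that value. These counts come from the model without a slide term. With slide as a block no transcript passed the adjusted threshold (634 higher and 774 lower at an unadjusted p under 0.05). On the deposited values, with the 8 striatum arrays fitted alone and no slide term, none passed either (3590 higher and 3978 lower at an unadjusted p under 0.05). In the model of all 23 arrays without array weights 26 bright known genes passed. Each rise or fall named below holds for the model of all 23 arrays with array weights and no slide term. Some named list genes below are under the bright level, among them Fos, Gpr52, Ido1, Homer3, Kcnn3, Cacng6, Scn4a, Pcdhb9, Tlr2, H2ap and H2ac1.

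The 881 genes were then set against L52. Among the 497 rises, L52 lay below all 4 CM arrays for 263, within their range for 189 and above it for 45, and the CM mean was above L52 for 399 (80.3%). Among the 384 falls, L52 lay within the range of the CM arrays for 223, below it for 82 and above it for 79, and the CM mean was below L52 for 172 (44.8%). L52 is 1 of the 4 SC arrays that gave the calls, so these shares are not independent of the calls. Over all bright known genes the median of the CM mean minus L52 was 2e-04. The median fall was -0.75 against the 3 SC arrays of other slides and 0.02 against L52, and the median rise was 0.40 and 0.09. For 79.4% of the bright falls L52 thus sat within or beyond the range of the CM arrays, beside 47.1% of the bright rises. In the frontal cortex of SC mice, 3 arrays lay on slide 1 and 1 on slide 2 (mouse L52), so that slide and that mouse or its dissection cannot be told apart there. The difference of the 3 arrays from that array had the sign of the striatal diet difference for 354 of the 384 falls (median -0.50) and for 410 of the 497 rises (median 0.16). Over all bright known genes the median of this frontal cortex difference was 0.02. All 4 CM arrays lay on one side of all 4 SC arrays, L52 included, for 217 of the rises (1.96% of all bright known genes) and 62 of the falls (0.561%). The genes described first come from these, except Dcaf12l2 and Cstad, whose arrays overlapped.

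**Figure D2:**
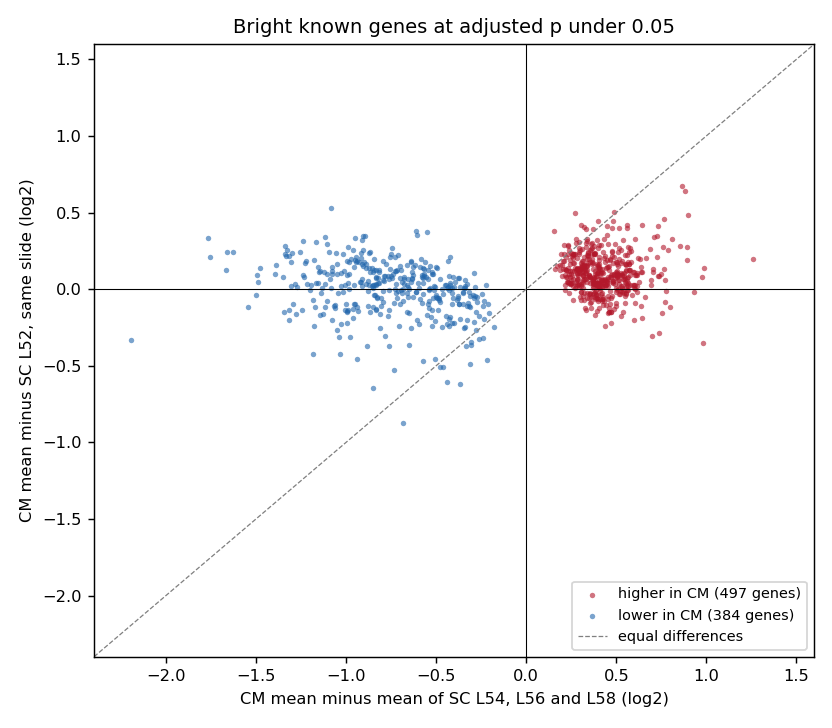
Each point is one of the 881 bright known genes called at an adjusted p under 0.05 (red, 497 higher in CM; blue, 384 lower). The horizontal axis is the CM mean minus the mean of SC L54, L56 and L58, and the vertical axis is the CM mean minus SC L52 of the same slide, both in log2. The falls spread along the horizontal axis around a height of 0, with a median of 0.02 against L52.

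Per2 and Tnfrsf25 were the bright known genes whose rise was largest against both kinds of chow array. Per2, a transcriptional repressor of the circadian clock (array probe on chromosome 1, 93313046 to 93313105, mm9), was at 8.11 on L52, at 7.56, 8.18 and 8.04 on L54, L56 and L58, and at 8.76, 8.68, 8.75 and 8.96 on the CM arrays. All 4 CM arrays lay above all 4 SC arrays. The fitted rise was 0.77 ± 0.15 (SE, adjusted p = 0.00609), and within slide 1, against L52 alone, it was 0.66 ± 0.18. Tnfrsf25, a death receptor of the tumour necrosis factor receptor family (chromosome 4, 151494160 to 151494219, mm9), was at 10.02 on L52, at 10.06, 9.52 and 9.75 on the other SC arrays and at 10.67, 10.89, 10.52 and 10.53 on the CM arrays. Again no CM array overlapped an SC array, with a fitted rise of 0.91 ± 0.16 (adjusted p = 0.00484) and 0.64 ± 0.22 within slide 1. The differences of Per2 and Tnfrsf25 with slide as a block were 0.64 ± 0.18 and 0.74 ± 0.23, not called. Both genes were named in part for their distance from L52, so their differences within slide 1 are no separate support. Neither was called within slide 1.

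H2-DMb1, a chain of the class II antigen-loading chaperone, rose by 0.78 ± 0.21 (adjusted p = 0.0234). It was at 8.302 on L52, at 7.81, 7.93 and 7.93 on the other SC arrays and at 8.72, 8.77, 8.44 and 9.21 in CM, so that L52 was the closest chow array. Spata21, named for its link to spermatogenesis, rose by 0.52 ± 0.13 (adjusted p = 0.0146) and differed by 0.50 from L52 and 0.49 from the others. For these genes the distance to L52 was at least 0.48. For the remaining large rises L52 took an intermediate place. Atp2b3, a calcium pump of the plasma membrane, was at 11.94 on L52, 11.92, 10.89 and 11.14 on the other SC arrays and 12.07, 12.14, 12.01 and 12.64 on the CM arrays, and its rise of 0.84 ± 0.22 came to 0.22 ± 0.28 within slide 1. A second Atp2b3 transcript on the array differed by 0.20 and was not called. Dnase1l2, a DNase I-like nuclease, was at 8.73 on L52, 8.15, 8.17 and 8.16 on the other SC arrays and 9.04, 9.099, 8.95 and 8.96 in CM. Its rise of 0.77 ± 0.09 (adjusted p = 0.00105) came to 0.28 ± 0.09 within slide 1. Chtf8, a subunit of a clamp loader of DNA replication, showed the largest rise among bright genes whose arrays did not overlap, 1.19 ± 0.33, but L52 (13.99) and L54 (13.74) lay close to the CM arrays (14.22, 14.26, 14.15 and 14.13) and L56 and L58 were at 12.46 and 12.60. Noxred1 and the zinc finger gene Zfp52 rose by 0.73 and 0.72 and differed from L52 by 0.19 and 0.14.

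Among the falls, Cpne9, Spata32, Dcaf12l2 and Cstad were as low in CM against L52 as against the other chow arrays, or nearly so. They were named for their distance from both, so this is part of the choice. Cpne9, a copine that binds phospholipid membranes in the presence of calcium, was at 11.08 on L52, 11.66, 10.94 and 11.27 on the other SC arrays and 10.64, 10.499, 10.33 and 10.28 on the CM arrays. It fell by 0.73 ± 0.19 (adjusted p = 0.0211), with -0.63 ± 0.19 within slide 1 and -0.51 ± 0.21 with slide as a block, not called in either. Spata32 was at 8.701 on L52, 8.61, 8.31 and 8.599 on the other SC arrays and 7.79, 7.85, 7.95 and 7.71 in CM, a fitted difference of -0.63 ± 0.17 (adjusted p = 0.0244). It differed more from L52 than from the rest, by -0.85 ± 0.18 within slide 1, not called there. The value with slide as a block was -0.41 ± 0.22, and the frontal cortex chow arrays of slide 1 differed from that of slide 2 by -1.04. Cstad fell by 0.53 ± 0.14 and Dcaf12l2, named as a substrate factor of a CUL4 ubiquitin ligase, by 0.85 ± 0.19, with -0.52 within slide 1 for both. Dcaf12l2 on L58 (11.53) was lower than on 3 of the CM arrays, and Cstad on L58 (10.98) was just below O56 (11.00). Ccdc184 and Zfp641 fell, with fitted differences of -0.52 and -0.59 (adjusted p = 0.0462 and 0.0284), with no overlap of the arrays.

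The falls that were largest in size had L52 next to the CM arrays. Mpp3, a membrane-associated guanylate kinase scaffold, was at 9.47 on L52, 10.71, 10.74 and 10.304 on the other SC arrays and 9.33, 9.15, 9.43 and 9.33 on the CM arrays. Its fitted difference of -1.20 ± 0.17 (adjusted p = 0.00256) became -0.16 ± 0.14 within slide 1. These values are those of the brighter of 2 Mpp3 transcripts on the array, and the other, with a fitted difference of 0.0056, was not called. For the brighter transcript L52 was above every CM array, by a small step. Rprl2, an RNase P RNA-like gene, kept more of its difference, with 9.25 on L52, 10.12, 9.84 and 10.07 on the other SC arrays, 8.75, 8.82, 8.92 and 8.81 in CM and -0.42 ± 0.21 within slide 1. Hs2st1, which sulfates heparan sulfate chains, fell by 0.93 ± 0.18 with -0.38 within slide 1. Ephx3 (an epoxide hydrolase), Szrd1, Gpbar1 (the membrane bile acid receptor) and Pla2g4b (a cytosolic phospholipase) fell, with fitted differences of -0.88 to -1.04 and differed from L52 by -0.10 to -0.17.

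**Figure D3:**
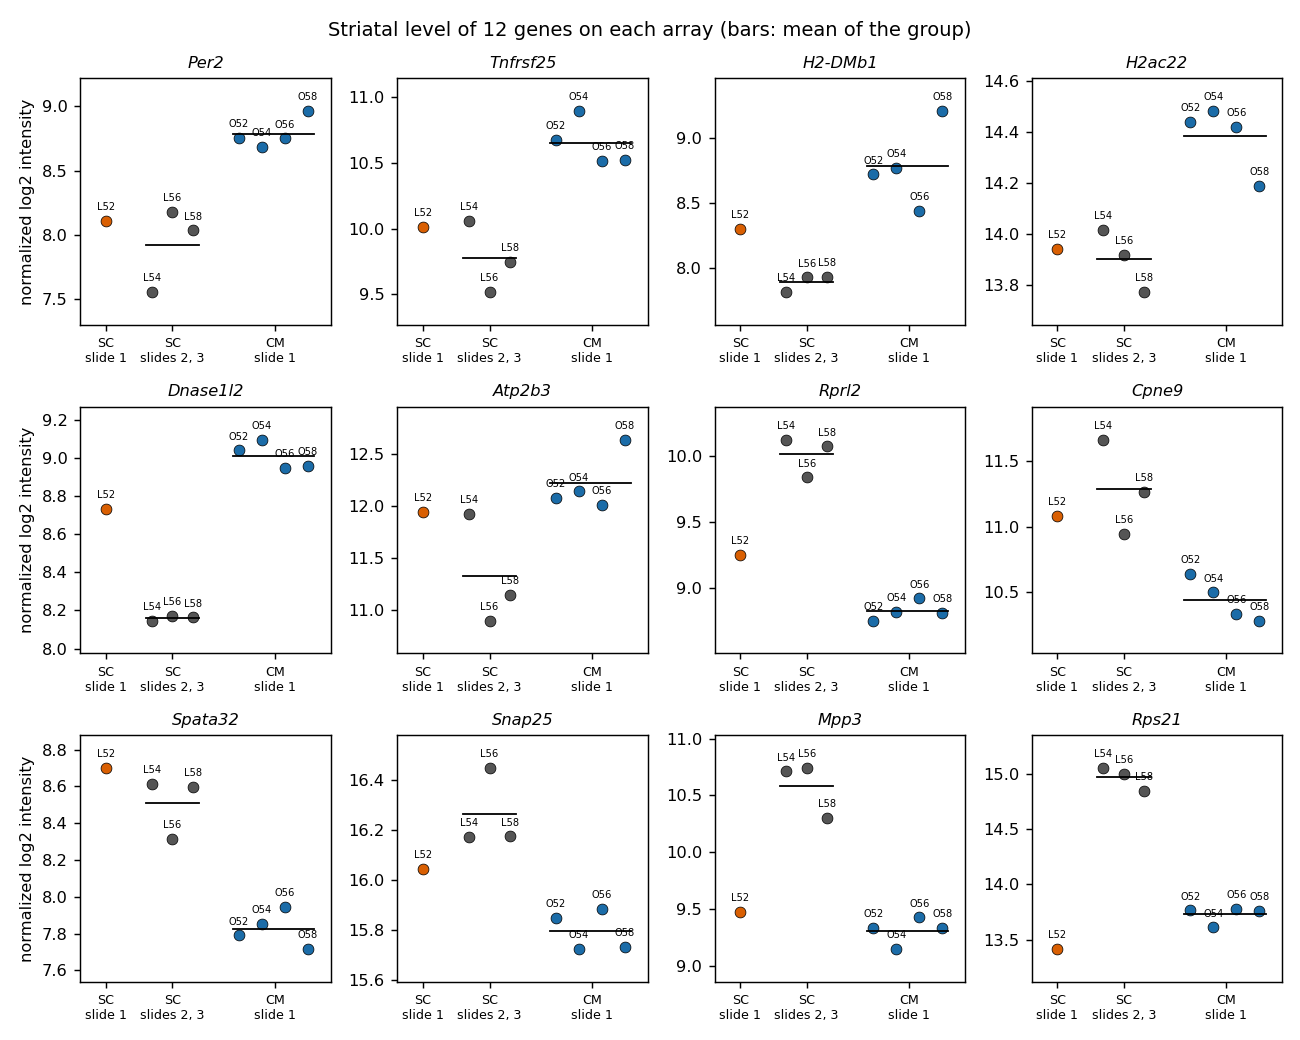
Normalized log2 intensity of 12 genes on each striatum array, with SC L52 of slide 1 in orange, the SC arrays of slides 2 and 3 in grey and the CM arrays of slide 1 in blue, and bars at the means of the grey and blue groups. For Per2, Tnfrsf25, Cpne9 and Spata32 L52 lies with the other chow arrays, and for Mpp3 and Rps21 it lies with or beyond the CM arrays (Rps21 13.41 on L52 and 13.61 to 13.78 in CM).

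The brightest genes past 2-fold and an adjusted p under 0.01 did not differ from L52 in the direction of their fall, with Cfap300 as the exception. Rps21, a protein of the small ribosomal subunit, was at 13.41 on L52, 15.05, 15.004 and 14.85 on the other SC arrays and 13.77, 13.61, 13.78 and 13.76 on the CM arrays. It fell by 1.05 ± 0.19 in the fit (adjusted p = 0.00484), while L52 lay below all 4 CM arrays and the difference within slide 1 was 0.32 ± 0.10. Aff3 (a transcription elongation factor), Notum (which removes the lipid from Wnt proteins) and Cyp17a1 (a steroid hydroxylase) fell, with fitted differences of -1.13, -1.06 and -1.17, and the CM mean was above L52 by 0.23, 0.10 and 0.16. A second Aff3 transcript differed by -0.20 and was not called. Cfap300, a cilia protein gene, was at 15.68 on L52, 16.46, 16.84 and 16.28 on the others and 15.59, 15.24, 15.54 and 15.75 in CM, with -0.17 ± 0.19 within slide 1. The largest bright fall at which L52 lay inside the CM range was Vmn1r65, a vomeronasal receptor gene, with 9.68 on L52, 11.94, 11.57 and 11.12 on the other SC arrays and 10.21, 9.09, 9.69 and 8.41 in CM. Olfr1466 and Baiap2l2 were next, at -1.76 and -1.66 against the 3 other SC arrays and 0.21 and 0.12 against L52.

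Within slide 1, the 4 CM arrays were compared with L52 alone, with the spread taken from all groups, so that L52 was assumed to vary like the others. Only 43 transcripts passed an adjusted p under 0.05 (0.137% of those tested), 8 higher and 35 lower in CM, and 3 of them were bright known genes (0.0272%). These 3 are named after their values were seen. Chst8, a sulfotransferase, was at 11.38 on L52, 10.18 ± 0.19 (SD, n = 4) in CM and 10.38 on average on the other SC arrays. Gas2, a growth arrest gene of the cytoskeleton, was at 8.97, 8.41 ± 0.09 and 8.16, and Slc41a3, a solute carrier, at 9.46, 8.62 ± 0.16 and 8.87. For each of these 3 the other chow arrays sat near the CM arrays and L52 stood apart, and none was called in the comparison of all 4 SC arrays.

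The immediate early genes switch on within minutes of synaptic activity and encode transcription factors and synaptic regulators. CREB, activated by cAMP and calcium signals, binds TGACG half-sites in the promoters of several of them, and the promoter windows of the pair that rose are shown to let these sites be seen. Each window holds 300 bases around the RefSeq start site on GRCm38.p6, with half-sites on either strand (TGACG, or CGTCA on the strand shown) in capitals, Nr4a1 at chr15:101266596-101266895 and Fos at chr12:85473640-85473939, both on the plus strand.
Nr4a1: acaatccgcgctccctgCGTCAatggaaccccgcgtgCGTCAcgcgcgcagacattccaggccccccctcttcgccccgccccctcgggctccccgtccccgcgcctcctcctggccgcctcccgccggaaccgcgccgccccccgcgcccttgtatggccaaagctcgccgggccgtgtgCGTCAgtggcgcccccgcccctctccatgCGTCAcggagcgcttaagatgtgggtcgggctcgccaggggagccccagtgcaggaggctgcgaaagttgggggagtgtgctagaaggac
Fos: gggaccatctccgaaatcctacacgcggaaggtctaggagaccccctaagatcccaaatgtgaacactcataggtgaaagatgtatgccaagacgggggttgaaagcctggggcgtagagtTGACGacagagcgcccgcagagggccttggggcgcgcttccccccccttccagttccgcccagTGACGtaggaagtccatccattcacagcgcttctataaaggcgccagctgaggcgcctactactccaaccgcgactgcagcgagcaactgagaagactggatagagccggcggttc
The Nr4a1 window holds 4 half-sites and the Fos window 2. TGACG on either strand was present in 20.8% of 32851 mouse promoter windows of this length and in 58.3% of the 36 windows of the listed immediate early genes. A match describes the letters and not a bound site.

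Of 31 immediate early genes measured, 2 rose, 1 fell and 28 did not pass the adjusted threshold. The share called, 3 of 31, stands beside the 7.67% over all 17077 known genes, and the median difference of the list was 0.25 against 0.06 over all known genes. At an unadjusted p under 0.05, 8 were higher and 1 lower, beside 13.9% higher and 8.8% lower over all known genes. The median was 0.19 against L52 and 0.21 against the other SC arrays, and the chow arrays of frontal cortex gave -0.04 for slide 1 against slide 2. Nr4a1, an orphan nuclear receptor (chromosome 15, 101105071 to 101105130, mm9), was at 13.12 on L52, 12.72, 12.64 and 13.07 on the other SC arrays and 12.95, 14.06, 13.77 and 13.53 on O52, O54, O56 and O58. Its rise was 0.78 ± 0.23 (adjusted p = 0.0369), and 0.43 ± 0.30 within slide 1. Fos, a subunit of the AP-1 transcription factor, was at 7.101 on L52, 6.77, 6.81 and 6.68 on the others and 7.04, 7.81, 7.71 and 7.57 in CM, a rise of 0.69 ± 0.21 (adjusted p = 0.0441). Unlike Nr4a1, Fos was not among the bright known genes. For both genes O54, O56 and O58 lay above every SC array and O52 lay among them. Gadd45b, a stress-inducible regulator of DNA demethylation, fell by 0.37 ± 0.11 (adjusted p = 0.0398) and did not differ in direction from L52 (CM mean 0.02 higher).

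The same array pattern held for 2 genes that did not pass the adjusted threshold and were picked after their values were seen. Arc, a regulator of AMPA receptor trafficking, was at 11.99 on L52, 11.79, 11.63 and 12.54 on the other SC arrays and 12.11, 13.21, 12.91 and 12.82 in CM (fitted difference 0.91 ± 0.30, adjusted p = 0.0614). Npas4, an activity-dependent transcription factor, was at 9.79, 10.26, 9.81 and 10.28 and 9.95, 10.93, 11.13 and 10.99 in the same order (0.74 ± 0.27, adjusted p = 0.0924). O52 was the lowest CM array for Nr4a1, Fos, Arc and Npas4. Egr2, a zinc finger factor, was 1.20 ± 0.39 higher (adjusted p = 0.0573), with 8.54, 9.13, 8.82 and 8.91 on all CM arrays above 8.03 on L52 and 7.45, 7.62 and 7.54 on the others. Egr1 and Fosb, of the same class, differed by 0.28 ± 0.25 and 0.13 ± 0.21, within the spread of the arrays.

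**Figure D4:**
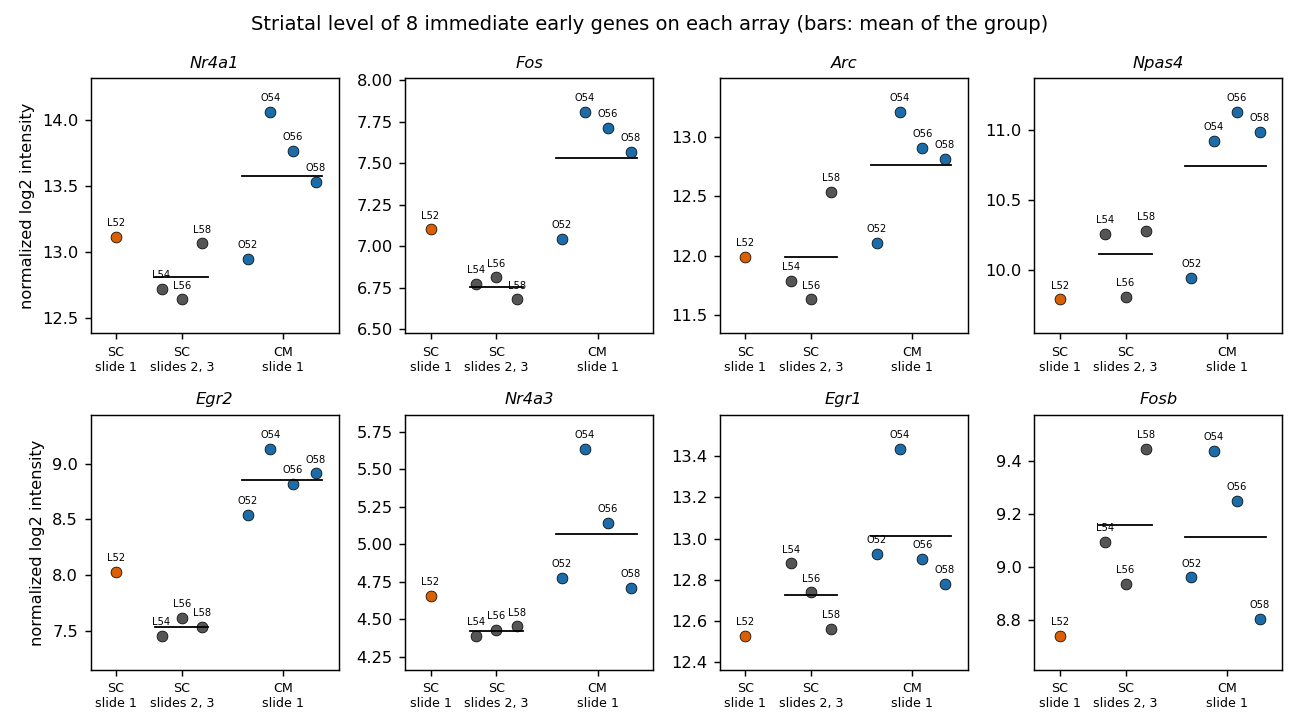
Normalized log2 intensity of 8 immediate early genes on each striatum array, coloured as for the genes above, with bars at the means of the 3 other SC arrays and the 4 CM arrays. For Nr4a1, Fos, Arc and Npas4 the arrays O54, O56 and O58 lie above all chow arrays while O52 lies among them.

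Of 21 circadian clock genes 9.52% were called, beside 7.67% of all known genes. Of these 1 rose (Per2) and 1 fell, Csnk1e, the kinase that phosphorylates PER proteins, by 0.32 ± 0.09 (adjusted p = 0.0276), with 0.03 higher in CM against L52. Its second transcript differed by 0.18, in the opposite direction, and was not called. Dbp, an output factor of the clock, was at 14.98 on L52, 14.396, 14.94 and 14.76 on the other SC arrays and 15.12, 15.26, 15.23 and 15.34 in CM, so that all CM arrays lay above all SC arrays, with a fitted difference of 0.44 ± 0.16 (adjusted p = 0.0962). Per1 and Per3 differed by 0.32 ± 0.14 and 0.39 ± 0.15 (adjusted p = 0.175 and 0.103). The activator genes Arntl and Clock differed by 0.12 and -0.11 on the log2 scale. These genes besides Per2 and Csnk1e were picked after their values were seen.

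Of the 30 striatal markers 1 rose and 1 fell. That is 6.67% called, near the 7.67% of all known genes. Gpr52, an orphan receptor that raises cAMP in D2-type neurons, was at 7.37 on L52, 6.58, 6.85 and 6.46 on the other SC arrays and 7.61, 7.65, 7.63 and 7.89 in CM, a rise of 0.86 ± 0.21 (adjusted p = 0.014) that came to 0.30 ± 0.25 within slide 1. Ido1, which degrades tryptophan, was at 5.82, 7.55, 8.33 and 8.12 and 6.16, 5.84, 6.26 and 6.18 in the same order, a fitted difference of -1.66 ± 0.47 in which L52 lay below all CM arrays. Penk (enkephalin) was between 16.74 and 17.35 on all 8 arrays, and its difference was 0.11 ± 0.55. Drd1 differed by 0.26 ± 0.66, Tac1 (substance P) by 0.15 ± 0.40, Pdyn (dynorphin) by 0.32 ± 0.29, Ppp1r1b (DARPP-32) by 0.17 ± 0.60 and Adora2a (an adenosine receptor) by 0.39 ± 0.90. Drd2 was at 10.598 on L52, 9.29, 10.09 and 10.61 on the other SC arrays and 10.76, 11.11, 10.76 and 10.79 in CM (0.83 ± 0.56, adjusted p = 0.375), with all CM arrays above all SC arrays. L54, the array with the highest cortical markers, had the lowest Drd2 and the lowest Penk. With slide as a block the fitted differences of these markers, from Penk to Drd2, were all negative. They were -0.72 for Penk, -0.50 for Drd1, -0.44 for Tac1 and -0.09 for Pdyn. Ppp1r1b, Adora2a and Drd2 were at -0.45, -0.96 and -0.36, and none was called. The median of the 30 striatal markers turned from 0.20 to -0.40. The cause of this change in direction was not tested. In the model without a slide term the standard errors of these markers were 0.29 to 0.90. That model pools the spread of the arrays of all regions. For Penk the SD was 0.28 in SC and 0.04 in CM striatum, beside a standard error of 0.55. Its chow frontal cortex arrays differed by 2.11 between slides. These standard errors therefore give no detection limit for the striatum alone.

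Of 36 genes of dopamine and cAMP signalling, 2 rose and none fell (5.56% called, beside 7.67% of all known genes). Rgs2, which shortens G protein signals, rose by 0.56 ± 0.13 (adjusted p = 0.00968), with 11.57 on L52, 10.69, 11.24 and 10.998 on the other SC arrays and 11.77, 11.76, 11.62 and 11.59 in CM. The catalytic phosphatase subunit Ppp1ca rose by 0.30 ± 0.08. Both differed from L52 by little, 0.11 and 0.03.

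Of 30 genes of vesicle release none rose and 3 fell (10%, beside 3.87% falls over all known genes), and for each of these the CM mean was also below L52. L52 is among the SC arrays that gave these calls, so this is no separate support. Snap25, a SNARE protein of the release machinery (chromosome 2, 136607709 to 136607768, mm9), was at 16.05 on L52, 16.17, 16.45 and 16.18 on the other SC arrays and 15.85, 15.72, 15.89 and 15.73 in CM. It fell by 0.49 ± 0.11 (adjusted p = 0.00895), with no overlap of the arrays and -0.24 ± 0.13 within slide 1. Nsf, the ATPase that takes SNARE complexes apart, fell by 0.41 ± 0.12 (adjusted p = 0.0319). It was at 15.33 on L52, 15.52, 15.26 and 14.68 on the others and 14.85, 14.79, 14.99 and 14.73 in CM, so that L58 alone among the SC arrays reached the CM level. Within slide 1 the difference was -0.47 ± 0.12, not called there. Rims1, a scaffold of the active zone, fell by 0.90 ± 0.22 (adjusted p = 0.0146) with 9.51 on L52, 10.17, 10.400 and 10.304 on the others and 9.23, 9.64, 9.31 and 8.99 in CM. For Nsf and Rims1 a second, dimmer transcript was not called, with fitted differences of 0.06 and -0.0089. The list median was -0.06 and -0.08 against L52. The mean of the cortical markers was 8.50 on L52, 10.35, 8.31 and 9.56 on L54, L56 and L58, and 9.09, 9.30, 9.13 and 7.49 in CM. Snap25, Nsf and Rims1 are also expressed by cortical neurons. The part of cortical RNA in these falls was not tested.

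On the receiving side, 2 of 25 glutamate receptor genes rose, among them the kainate receptor subunit gene Grik2 by 0.42 ± 0.12, for which L52 lay within the CM range, while its 2 other transcripts, at -0.0050 and 0.15, were not called. The share called was 8%, beside 7.67% of all known genes. Of 29 postsynaptic density genes 2 rose, among them the scaffold Dlg2 (0.35 ± 0.10), which was above L52 on every CM array. The list had 13.8% called, beside 7.67% of all known genes. Homer3 and the adhesion protein gene Nlgn3 fell, with fitted differences of -0.57 and -0.42, with L52 in the CM range. Their second transcripts, at 0.25 and 0.03, pointed the other way and were not called. None of 21 genes of GABA synthesis and reception passed (2 higher and none lower at an unadjusted p under 0.05). Over all known genes 13.9% were higher and 8.8% lower at that unadjusted threshold. Of 19 opioid and endocannabinoid genes 1 fell (5.26%, beside 7.67% of all known genes), Cnr2, the second cannabinoid receptor. Cnr2 was at 10.53 on L52, 11.97, 11.95 and 11.65 on the other SC arrays and 10.61, 10.37, 10.56 and 10.66 in CM. Its fitted difference of -1.19 ± 0.18 became 0.02 ± 0.12 within slide 1. None of 33 feeding peptides and their receptors passed (3 higher and 1 lower at an unadjusted p under 0.05, beside the same 13.9% and 8.8%).

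Of 87 potassium channel genes 2 rose and 4 fell, and of 40 sodium and calcium channel genes none rose and 4 fell. The shares called were 6.9% and 10%, beside 7.67% of all known genes, and the medians were 0.0092 and 0.02. Kcna7, Kcnd1 and Kcna4 fell, with fitted differences of -0.73, -0.59 and -0.54 and Kcnn3 rose by 0.54. Cacng6, Cacna2d2 and Scn4a fell, with fitted differences of -0.82, -0.57 and -0.43. L52 lay within the CM range for each of these genes. A second Kcnd1 transcript differed by -0.21 and was not called. Of 46 protocadherins 1 rose (2.17%, beside 7.67% of all known genes), Pcdhb9, by 0.62 ± 0.18, with the CM mean 0.07 below L52.

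Among the gene lists, that of the cytosolic ribosomal proteins had the most rises, by small steps. Of 81 cytosolic ribosomal protein genes, 11 rose and 2 fell, beside 3.8% rises and 3.87% falls over all known genes. The median difference was 0.10, beside 0.06 over all known genes and 0.05 against L52. It was 0.0045 with slide as a block, and the list median for slide 1 against slide 2 in chow frontal cortex was 0.19. The mean level of the list was 14.56 to 14.62 on the CM arrays, 14.53 on L52 and 14.45 to 14.53 on the other SC arrays. Rps24 rose by 0.30 ± 0.09 and Rpl3 by 0.34 ± 0.09, and Rpl4 fell by 0.31 ± 0.09. Rpl3 was 0.10 lower in CM than on L52, and Rps24 and Rpl4 differed from L52 by 0.04 and -0.03. A second Rpl3 transcript also rose, and 3 further Rps24 transcripts lay between -0.25 and 0.30, with 1 of them called. Ribosomal protein genes have many processed copies in the genome, so probes for them can also take up RNA of copies. Of 46 proteasome genes 3 rose and 1 fell (8.7% called, beside 7.67% of all known genes). Psmc4, an ATPase subunit, rose by 0.37 ± 0.08 (adjusted p = 0.0102) with 13.05 on L52, 12.71, 12.699 and 13.19 on the others and 13.12, 13.24, 13.19 and 13.09 in CM. Psmb3 and Psmd7 rose by 0.29 and 0.27 and differed from L52 by 0.10 and 0.08. Psme3, an activator subunit, fell by 0.74 with the CM mean 0.18 above L52.

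The chaperones Dnajb1 and Hsph1 rose by 0.32 ± 0.10 and 0.31 ± 0.10, 2 of 31 genes of that list (6.45%), and both were slightly below L52. Of 88 respiratory chain genes 2 rose, Ndufs1 and Ndufb3 of complex I (0.39 ± 0.10 and 0.29 ± 0.08), and 1 fell (3.41% of the list called, beside 7.67% of all known genes), Cox4i2, by 0.47. Ndufs1 was at 14.71 on L52, above every CM array, and for Ndufb3 and Cox4i2 L52 lay within the CM range. Of 29 genes of cholesterol and fatty acid synthesis 1 fell (3.45%), Acat2, a thiolase of sterol synthesis, with 9.24 on L52, 9.65, 9.57 and 9.900 on the other SC arrays and 9.09, 8.92, 9.196 and 8.79 in CM (fitted difference of -0.54 ± 0.13, adjusted p = 0.0149). None of 27 genes of fatty acid oxidation and ketone use passed (3 higher and 1 lower at an unadjusted p under 0.05). Over all known genes 13.9% were higher and 8.8% lower at that unadjusted threshold.

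Of 31 genes of insulin, leptin feedback and inflammation 3 rose and none fell (9.68% called, beside 7.67% of all known genes). The list median was 0.16, beside 0.07 with slide as a block and 0.18 for slide 1 against slide 2 in chow frontal cortex. Jak2, the kinase of the leptin and cytokine receptors, was at 11.42 on L52, 11.03, 11.26 and 11.11 on the other SC arrays and 11.57, 11.73, 11.63 and 11.57 in CM, a rise of 0.41 ± 0.10 (adjusted p = 0.0141). Stat3, the transcription factor it activates, rose by 0.30 ± 0.09 (adjusted p = 0.0436), with 11.77 on L52, 11.71, 11.49 and 11.33 on the others and 11.84, 11.97, 11.84 and 11.77 in CM. Every CM array lay above every SC array for both genes, but for Stat3 O58 (11.77) and L52 (11.767) were nearly equal. Within slide 1 the differences were 0.20 ± 0.13 and 0.09 ± 0.11. A second Stat3 transcript also rose, by 0.45. Tlr2, an innate immune receptor, rose by 0.57 ± 0.18 (adjusted p = 0.0488). For Tlr2 L52 (7.05) lay within the CM range (6.99 to 7.57), and the difference within slide 1 was 0.16 ± 0.22. Errfi1, a feedback inhibitor of growth factor receptors, was the 1 gene called of 18 glucocorticoid-responsive genes (5.56%, beside 7.67% of all known genes). It rose by 0.43 ± 0.12, with L52 within the CM range.

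Microglia, the resident immune cells, were assessed by 16 markers. Of these 1 rose (6.25%, beside 7.67% of all known genes called), Ly86, by 0.45 ± 0.13 (adjusted p = 0.0358). L52 (11.85) lay among the CM arrays (11.81, 11.69, 11.79 and 12.03). At an unadjusted p under 0.05, 7 were higher and none lower, beside 13.9% higher over all known genes. The mean level of the list was 11.80 to 11.91 on the CM arrays, 11.70 on L52 and 11.52 to 11.77 on the other SC arrays, and its median difference was 0.15 against L52, beside 0.16 for slide 1 against slide 2 in chow frontal cortex. Among the other cell types, 1 of 17 astrocyte genes (Slc4a4, a bicarbonate transporter, by 0.79) and 1 of 13 endothelial genes (Esam, a junction protein, by 0.33) fell. These are 5.88% and 7.69% of the lists, beside 7.67% of all known genes called. For Slc4a4 and Esam L52 lay within the CM range, with -0.20 and -0.05 within slide 1. None of 22 myelin genes passed at an adjusted or an unadjusted p under 0.05. None of 7 red blood cell, 12 choroid plexus, 8 ependymal, 14 cortical, 12 hypothalamic, 9 thalamic and 12 striatal interneuron genes passed the adjusted threshold. Among these, 1 red blood cell gene was higher and 1 hypothalamic gene lower at an unadjusted p under 0.05, beside 13.9% and 8.8% over all known genes. The largest rises at which L52 lay in the CM range were those of Kcnj13, Ttr and Wdr86, which were not called. Ttr, the choroid plexus carrier of thyroid hormone, was at 13.61, 11.61, 13.91 and 18.21 on O52, O54, O56 and O58 and at 10.61 to 14.16 on the SC arrays, with O58 far above the other CM arrays.

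Of 66 histone genes 6 rose and 3 fell (13.6% called, beside 7.67% of all known genes). The list median was 0.09, beside 0.02 with slide as a block and 0.29 for slide 1 against slide 2 in chow frontal cortex. The 6 rises were 5 H2A genes of similar sequence (H2ac10, H2ac19, H2ac20, H2ac22 and H2aj) and H2ap. H2ac22, also named for its distance from L52, was at 13.94 on L52, 14.02, 13.92 and 13.77 on the other SC arrays and 14.44, 14.48, 14.42 and 14.19 in CM. Its rise was 0.47 ± 0.13 (adjusted p = 0.0295), and 0.46 ± 0.15 within slide 1, not called there. With slide as a block it was 0.18 ± 0.17, and the frontal cortex chow arrays of slide 1 were 0.82 above that of slide 2. The copies are close to identical, so that their probes can take up each other's RNA and do not count as separate observations. The falls included H1f8, the linker histone of the oocyte, by 1.01 ± 0.16, and H2ac1, by 0.49 ± 0.12, both with L52 at the CM level (-0.12 and 0.06 within slide 1).

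Olfactory receptor genes, the longest list, gave the largest count of falls of any of the lists but not the largest share. The direction of the list depended on L52. Of 331 measured, none rose and 33 fell (9.97%), beside 3.87% falls over all known genes and 6.37% over all transcripts. Falls made up 10% of the vesicle release list and 10% of the sodium and calcium channel list. Only 10 of the 331 olfactory receptor genes were bright. The median difference was -0.22, against L52 it was 0.05 and with slide as a block it was 0.06, so that the direction of the list flipped. The mean level of the list was 5.01 on L52, 5.30 to 5.51 on the other SC arrays and 5.03 to 5.09 on the CM arrays. Olfr1466 was at 8.14 on L52, 10.36, 9.56 and 10.38 on the other SC arrays and 8.54, 8.32, 8.54 and 7.99 in CM, a fitted difference of -1.26 ± 0.35. Olfr173 and Olfr1415 fell, with fitted differences of -1.12 and -1.09, and with -0.16 and 0.19 against L52. Olfr715b was also called as a fall, but it was well above background on only 3 SC arrays and 1 CM array, so no size is given.

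**Figure D5:**
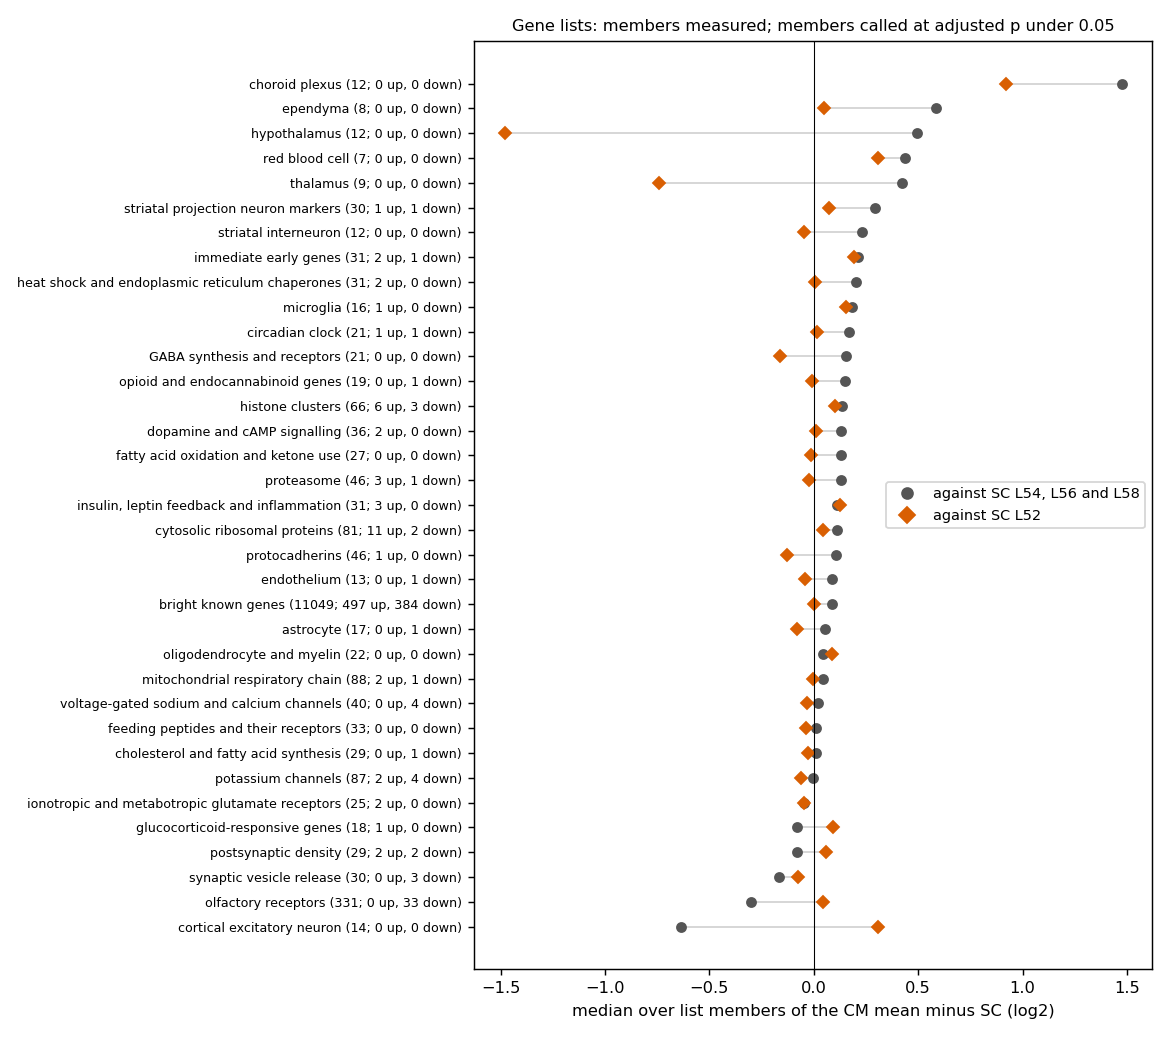
Median over the members of each gene list of the CM mean minus the mean of SC L54, L56 and L58 (grey circles) and minus SC L52 of the same slide (orange diamonds), in log2, with the members measured and the members called at an adjusted p under 0.05 in each row. Several lists have both values above 0, among them immediate early genes (0.21 and 0.19) and microglia (0.18 and 0.15). Red blood cell markers (0.44 and 0.31), histone genes and ribosomal protein genes are others, while vesicle release genes have both below 0 (-0.17 and -0.08). Olfactory receptors have -0.30 and 0.05, and choroid plexus markers, high on O58, have the highest medians.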

How the data were processed

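Gene expression in the striatum was measured on one-color Agilent mouse arrays (1 mouse per array), 4 of SC and 4 of CM mice among 23 arrays on 3 slides scanned on 1 day. The authors deposited the linear spot intensities of the scanner software (Feature Extraction 10.7.3.1) and, from these, log2 values after normexp background correction, quantile normalization, a filter on dim probes (at least 4 arrays above 1.1 times the negative controls' 95th percentile) and averaging by transcript. Rebuilding them from the intensities gave the same log2 values to within 5e-09. A linear model of 6 group means of diet and region was fitted to the 23 arrays with limma 3.58.1 (R 4.3.3, statmod 1.5.0), with array weights (gene-by-gene estimator), the mouse as a random block (correlation -0.0398), no slide term, empirical Bayes moderation and Benjamini-Hochberg adjustment over 31395 transcripts. "Rose", "fell" and "called" mean an adjusted p under 0.05 in this model. The difference within slide 1 came from the same model with groups split by slide. For single genes it is given as an effect size, because L52 alone stands for chow. Symbols came from the reference gene table, which matched 20203 identifiers, and 17077 known genes were each represented by the transcript with the highest mean over the 8 arrays. Each array was the only striatum measurement of its mouse, and the number of arrays limits the precision. Scripts were tested on simulated data.

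The genes and gene lists were chosen with earlier results of these data known. Genes were named by a rule: among bright known genes called, the 8 largest rises and falls with no overlap between diets, and the 6 rises and 6 falls with the largest distance from both L52 and the other SC arrays; the 5 brightest known genes past 2-fold and an adjusted p under 0.01; up to 4 called members of each list; 7 striatal markers; and the 3 largest rises and falls at which L52 lay in the CM range. Some genes that met the rule are not reported here. Other genes are stated as picked after their values were seen. The symbol pattern of the histone list also took in 2 genes known by other functions, which were dropped. Promoter windows are those of RefSeq on GRCm38.p6. The CM frontal cortex array of 1 mouse was not analysed here. Alternatives covered the slide, array weights, blocks, background, normalization, filters, thresholds and leaving out each array.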

Additional observations from a re-analysis of the deposited data

Results flagged for a closer look

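Among 91 named genes in 2 diets (182 groups of 4 arrays), 11 groups had 1 array whose gap to the nearest other exceeded the 95% critical share of the range of the group in Dixon's test. Chance gives about 1 in 20 groups. In SC, L52 stood alone for Cyp17a1 (10.74), Dnase1l2 (8.73), Psmb3 (14.34) and Rps21 (13.41), and L54 for Wdr86 (6.48). In CM, O54 stood alone for Dcaf12l2 (11.22), Drd2 (11.10) and Rps21 (13.61), O56 for Hsph1 (13.97), and O58 for Errfi1 (11.71) and Gpr52 (7.89). For Rps21 both diets had such an array, L52 as the lowest of SC and O54 as the lowest of CM.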

How the results depend on the processing

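In the order of transcripts at 2-fold and an adjusted p under 0.01, transcripts at an adjusted p under 0.05, bright known genes, bright known genes with no overlap between diets, and list genes called, the values were 189, 3082, 881, 279 and 102. With slide as a fixed block and with the striatum arrays fitted alone all 5 were 0 in limma, beside 634 higher and 774 lower transcripts at an unadjusted p under 0.05 with the block and 3590 and 3978 in the striatum alone. With slide as a random block they were 0, 7, 3, 3 and 0, within slide 1 they were 17, 43, 3, 3 and 1, and without array weights 0, 100, 26, 25 and 4. With the 8 arrays quantile normalized, filtered and fitted alone they were 0, 1205, 218, 111 and 33. Transcripts at the fold threshold numbered 1736 at 1.5-fold and an adjusted p under 0.1, 1412 at 1.5-fold and under 0.05, 507 with the processed signal scaled to the 75th percentile and 313 with 1 value per probe name. Leaving out 1 array gave ranges of 4 to 464, 1888 to 5830, 475 to 1891, 167 to 1272 and 53 to 192. The lowest of each came without O54. Without L52 the values were 464, 4436, 1389 and 1272 for all but the lists, without L54 378, 5830, 1891, 507 and 192, and without L56 342, 5046, 1724, 360 and 182. Transcripts at the fold threshold were 31 without L58 and 91 without O58. The 43 transcripts within slide 1 became 20 with spots well above background on all 8 arrays and 28 to 43 when 1 array was left out (28 without O54), and the 26 striatal markers became 11 to 27 (11 without L56). REML weights, no mouse block and an offset of 50 kept each of the 5 counts within 1.5 times. So did the deposited order of transcripts, an alternative added after seeing the data, on which the gene-by-gene weights depend (203 and 3258 transcripts).

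Of the 81 named genes called, slide as a fixed block left 0 called and slide as a random block 2 (Dnase1l2 and Mpp3). The striatum arrays fitted alone on the deposited values also left 0 called, no array weights 6, and normalization, filter and fit of the 8 arrays alone 34. With slide as a fixed block 10 changed direction: Kcnd1 (0.047), Ndufs1 (-0.040), Nlgn3 (0.023), Notum (0.025), Olfr1415 (0.15), Olfr1466 (0.28), Rpl3 (-0.00046), Rpl4 (0.0045), Rps21 (0.16) and Scn4a (0.13). Within slide 1 27 changed direction, with values above 0 for Aff3 (0.24), Baiap2l2 (0.15), Cacna2d2 (0.0049), Cnr2 (0.017), Csnk1e (0.037), Cyp17a1 (0.19), Gadd45b (0.014), H2ac1 (0.059), Homer3 (0.064), Ido1 (0.29), Kcna7 (0.069), Kcnd1 (0.089), Nlgn3 (0.036), Notum (0.13), Olfr1415 (0.18), Olfr1466 (0.27), Psme3 (0.23), Rps21 (0.32) and Scn4a (0.10), and below 0 for Dnajb1 (-0.016), Errfi1 (-0.062), Hsph1 (-0.064), Ly86 (-0.034), Ndufb3 (-0.047), Ndufs1 (-0.18), Pcdhb9 (-0.042) and Rpl3 (-0.086). The cause of these changes was not tested. None of these 81 genes changed direction under another alternative.

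The mouse numbers did not pair the diets. Same-numbered SC and CM arrays deviated from their group means with correlations of -0.325 to 0.352 over 11049 genes, and 1 of 4 SC mice correlated best with its own number. With the replicate block 101 transcripts passed the fold threshold and 2677 the adjusted p alone, and 74 of the 81 named genes stayed called. Dim probes carry the least signal over background, and most olfactory receptor genes were below the bright level.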
